A study of Mus musculus with 16 samples.

Results

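The expression of 5 genes, Rmnd5b, Rmnd5a, Rem1, Pisd-ps1 and Pisd, was examined in myeloid-derived suppressor cells (MDSCs) of tumor-bearing mice with and without Nlrp3, the sensor protein of the NLRP3 inflammasome. They were chosen among 24421 gene symbols because Rmnd5b, Rem1 and Pisd-ps1 had higher counts in Nlrp3-/- than in wild type (WT) samples of the same data, and Rmnd5a and Pisd are relatives of Rmnd5b and Pisd-ps1. The genotype difference of the 5 genes is therefore given as a description without a test, while the difference between cell types was not used in the choice and was tested. An exception is made in Nlrp3-/- mice for Rem1 and Pisd-ps1, each chosen as high in 1 subset of those mice, whose difference between the subsets there is described without a test. Spleen M-MDSCs (monocytic) and G-MDSCs (granulocytic) were sorted from 8 mice labelled C57BL/6, 4 WT and 4 Nlrp3-/-, so that each mouse gave both subsets and the 4 groups held 4 libraries each. The methods name the WT mice as purchased C57BL/6J and the Nlrp3-/- mice as a separate line on a C57BL/6 background. All mice had received 300000 B16.F10 melanoma cells under the skin of the back, and no tumor-free mice were among the samples. In the Nlrp3-/- mice a cassette of EGFP and an SV40 poly(A) signal was joined to the start codon in exon 2 of Nlrp3 in every cell, and a neo cassette had been removed by crossing to a Cre strain. The methods give an age range and a default day of analysis for the study in general, and neither is stated for the sequenced mice themselves. RNA was read by QuantSeq, which sequences the 3′ end of polyadenylated transcripts, and each library came from 1 mouse.

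RMND5A and RMND5B are alternative RING subunits of the CTLH (GID) ubiquitin ligase, a large complex in which either pairs with MAEA to form the catalytic core. REM1 is a small GTPase of the RGK family, known for binding the beta subunits of voltage-gated calcium channels and lowering calcium current in heart, muscle and endothelium. PISD sits in the inner mitochondrial membrane and converts phosphatidylserine to phosphatidylethanolamine, and Pisd-ps1 is a transcribed pseudogene with much of the same sequence.

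Libraries held 2295967 to 6079866 counts. Before TMM scaling 3 counts corresponded to 0.493 to 1.31 CPM, a count scaled to the size of its library. All other CPM are given after TMM scaling over the 16 libraries. Amplified reads are not independent molecules, so the bound of 3 counts used below for Rem1 in libraries without a count covers counting error alone. Nlrp3 had 219 to 632 counts in WT and 4 to 11 in Nlrp3-/- M-MDSCs, and 744 to 1365 against 21 to 59 in G-MDSCs, which matched the genotype labels. Of the G-MDSC markers, Cxcr2, S100a8, S100a9, Mmp8 and Retnlg summed to 1098 to 6584 CPM in M-MDSC and 104418 to 161292 CPM in G-MDSC libraries. The M-MDSC markers Ly6c2, Ccr2, Csf1r, Cx3cr1, Ly86 and F13a1 summed to 4160 to 7610 against 633 to 1207 CPM. Within G-MDSCs these M-MDSC markers did not overlap between genotypes, at 633 to 930 CPM in WT and 1010 to 1207 CPM in Nlrp3-/- libraries. The other sums of these 2 sets overlapped between genotypes. Ly6g, the antigen of the G-MDSC sort, is not among the symbols analysed here. All 6 macrophage markers listed (C1qa, C1qb, C1qc, Vcam1, Cd5l and Mertk) were summed. Their sums were 36.0 to 53.7 CPM in WT and 113 to 230 CPM in Nlrp3-/- M-MDSCs. In G-MDSCs they were 71.2 to 204 CPM in WT and 336 to 480 CPM in Nlrp3-/- libraries. The sums of these markers moved in the same direction as Rmnd5b in both subsets, as Rem1 in M-MDSCs and as Pisd-ps1 in G-MDSCs. Their part in the differences below was not tested. In sorted bulk samples a change in the number of cells that carry a transcript and a change in the amount per cell cannot be told apart.

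Rmnd5b lies on chr11:51623671-51635896 (mm10, minus strand), and its end overlaps that of Nhp2 on the opposite strand. Rmnd5a lies on chr6:71388634-71440637, also on the minus strand. The 250 bases before the RefSeq start of each gene (GRCm38.p6, the same build) are shown because the relatives differ in the motifs they hold there. Capitals mark CGGAAG, an ETS core, in Rmnd5b and the letters GGGCGG (GC box) and CCAAT in Rmnd5a, on either strand.
Rmnd5b, chr11:51635897-51636146, minus strand: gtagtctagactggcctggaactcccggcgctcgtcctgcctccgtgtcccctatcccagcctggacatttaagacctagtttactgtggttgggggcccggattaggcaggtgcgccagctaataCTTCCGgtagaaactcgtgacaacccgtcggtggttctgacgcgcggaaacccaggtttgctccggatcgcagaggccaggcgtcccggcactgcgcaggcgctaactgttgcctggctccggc
Rmnd5a, chr6:71440638-71440887, minus strand: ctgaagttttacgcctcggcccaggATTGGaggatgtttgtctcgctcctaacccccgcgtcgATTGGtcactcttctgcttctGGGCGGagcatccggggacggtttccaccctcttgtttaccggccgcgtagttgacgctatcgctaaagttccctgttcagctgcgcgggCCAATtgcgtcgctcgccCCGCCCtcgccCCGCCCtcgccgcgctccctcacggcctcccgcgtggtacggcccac
Rmnd5b held 1 ETS core and no GC or CCAAT box, while Rmnd5a held 3 GC boxes, 3 CCAAT boxes and no ETS core. Of 32851 promoters of the same length, 13.6% held CGGAAG, 32.7% GGGCGG and 33.8% CCAAT. The other letters searched were TATAAA (12.4% of promoters), GAGGAAGT (2.44%), TTGCGCAA (0.164%) and TGACTCA (4.46%), none of which was found in either window, and no motif contains another. Rmnd5b had 20 and Rmnd5a 29 CG dinucleotides here, against a median of 6 over all promoters. These matches describe letters and not binding sites.

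Rmnd5b was higher without Nlrp3 in both subsets. In WT M-MDSCs it was at 25.3, 20.8, 25.9 and 25.4 CPM in replicates 1 to 4, and in Nlrp3-/- M-MDSCs at 68.4, 65.0, 83.3 and 73.1 CPM. The lowest Nlrp3-/- library was 2.51 times the highest WT library, and the groups did not overlap. In WT G-MDSCs Rmnd5b was at 75.8, 33.2, 72.9 and 74.3 CPM, and in Nlrp3-/- G-MDSCs at 157, 222, 233 and 284 CPM. Again the groups did not overlap, with a ratio of 2.07 between the nearest libraries, and WT replicate 2 lay far below the other WT libraries. The log2 fold change, Nlrp3-/- over WT, was 1.60 (SE 0.16) in M-MDSCs and 1.72 (SE 0.25) in G-MDSCs.

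**Figure D1:**
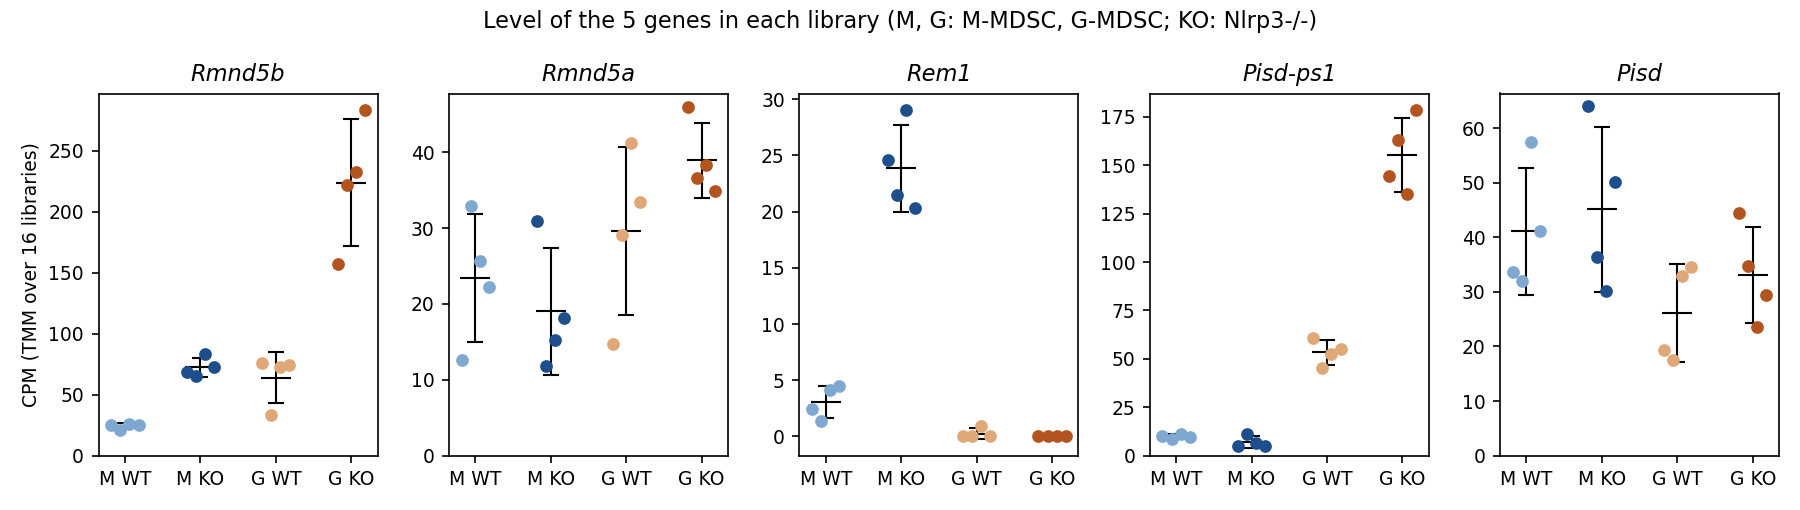
Level of each gene in CPM (vertical axes, linear, a scale of its own per gene) in the 16 libraries, by group (M and G for M-MDSC and G-MDSC, KO for Nlrp3-/-). Points are libraries, and bars are the mean and SD of 4. Rmnd5b stood at 24.3 and 72.5 CPM on average in WT and Nlrp3-/- M-MDSCs and at 64.1 and 224 CPM in G-MDSCs, Rem1 was near 0 in all 8 G-MDSC libraries, and Pisd-ps1 averaged 155 CPM in Nlrp3-/- G-MDSCs against 53.5 CPM or less in the other groups.

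From lowest to highest, the mean level of Rmnd5b was 24.3 ± 2.36 CPM (SD, n = 4) in WT M-MDSCs, 64.1 ± 20.6 CPM in WT G-MDSCs, 72.5 ± 7.97 CPM in Nlrp3-/- M-MDSCs and 224 ± 52.2 CPM in Nlrp3-/- G-MDSCs. WT G-MDSCs and Nlrp3-/- M-MDSCs, neighbors in this order, overlapped. Between the subsets, Rmnd5b was higher in G-MDSCs than in M-MDSCs of all 4 WT mice, with a log2 fold change of 1.40 (SE 0.25) and an adjusted p of 0.000456 in the quasi-likelihood test of edgeR, adjusted by Benjamini-Hochberg over all tested genes. In Nlrp3-/- mice the same difference was 1.51 (SE 0.18, adjusted p = 9.43e-06 by the same edgeR test), also in 4 of 4 mice. A gene is called here at an adjusted p under 0.05 and a fold change above 1.5, and 53.3% of 9739 genes tested in WT and 51% of 10071 in Nlrp3-/- mice were called between the subsets in either direction, so that a call alone is common.

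Rmnd5a did not share this pattern. It was at 12.6, 32.9, 25.7 and 22.3 CPM in WT M-MDSCs and at 30.9, 11.8, 15.2 and 18.1 CPM in Nlrp3-/- M-MDSCs. WT G-MDSCs had 14.7, 29.1, 41.2 and 33.5 CPM and Nlrp3-/- G-MDSCs 46.0, 36.5, 38.3 and 34.9 CPM. The genotypes overlapped in both subsets, with log2 fold changes of -0.25 (SE 0.35) in M-MDSCs and 0.30 (SE 0.27) in G-MDSCs. Between subsets Rmnd5a was 0.34 (SE 0.33) higher on the log2 scale in G-MDSCs of WT mice, which did not pass the test (edgeR adjusted p = 0.400), and rose by 0.90 (SE 0.29) in G-MDSCs of Nlrp3-/- mice (edgeR adjusted p = 0.0173). The latter call was lost without Nlrp3-/- M-MDSC replicate 2, where the log2 fold change was 0.72 with an edgeR adjusted p of 0.0523, and with library size alone as the scaling.

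Because both genes are counted in the same library, the ratio of their counts does not depend on scaling, and it was taken with 0.5 added to each count. The Rmnd5b to Rmnd5a ratio had medians of 1.07 in WT M-MDSCs, 4.68 in Nlrp3-/- M-MDSCs, 1.98 in WT G-MDSCs and 6.06 in Nlrp3-/- G-MDSCs. In M-MDSCs the 4 Nlrp3-/- ratios, from 2.21 to 5.49, lay above the WT ratios of 0.633 to 1.99. In G-MDSCs the WT ratios of 1.14 to 5.11 overlapped the Nlrp3-/- ratios of 3.41 to 8.11. Between the subsets the mean log2 ratio differed by 0.99 in WT mice (exact two-sided permutation p = 0.114) and by 0.48 in Nlrp3-/- mice (exact permutation p = 0.314), with overlapping groups. With 4 against 4 libraries this test cannot go below 0.0286, and over the 4 ratio comparisons made the adjusted values were 0.152 and 0.314. It did not use the pairing of subsets by mouse. In WT replicates 1 to 4 the ratio was 1.99, 0.633, 1.01 and 1.14 in M-MDSCs and 5.11, 1.14, 1.77 and 2.21 in G-MDSCs. In Nlrp3-/- replicates it was 2.21, 5.49, 5.44 and 4.02 against 3.41, 6.06, 6.06 and 8.11. The ratio was thus higher in the G-MDSCs of every mouse, which was not tested with pairs.

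**Figure D2:**
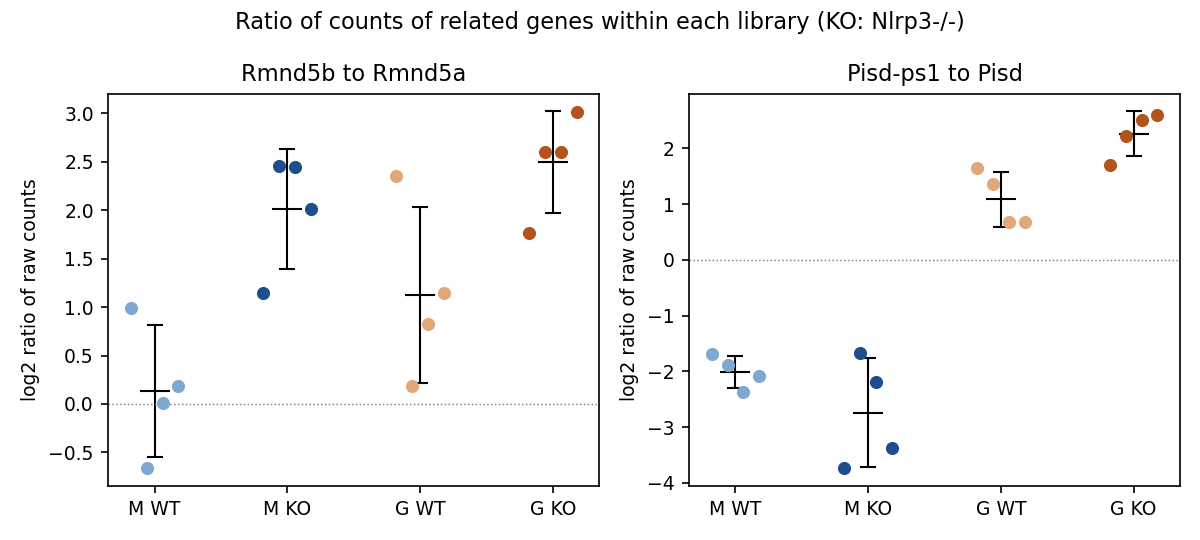
Log2 ratio of raw counts (vertical axes, 0.5 added to each count) of Rmnd5b to Rmnd5a and of Pisd-ps1 to Pisd in each of 16 libraries, by group (KO for Nlrp3-/-). Points are libraries and bars the mean and SD of 4. The Pisd-ps1 to Pisd ratio lay below 0 on the log2 scale in all 8 M-MDSC libraries and above 0 in all 8 G-MDSC libraries, and the Rmnd5b to Rmnd5a ratio averaged 0.13 in WT and 2.01 in Nlrp3-/- M-MDSCs.

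Of the other subunits of the CTLH complex, 10 were listed and all 10 were tested. In M-MDSCs 0 were called by edgeR between genotypes (1 had an unadjusted p under 0.05), against 10.6% of 9986 genes tested, 3.51% of which were higher and 7.1% lower. In G-MDSCs 1 fell, against 16.4% of 9273 genes, of which 4.7% were higher and 11.7% lower. This was Wdr26, a subunit of the higher-order assembly, which went from 697 ± 125 to 452 ± 45.6 CPM (SD, n = 4) with a log2 fold change of -0.71 (SE 0.16, edgeR adjusted p = 0.00795) and no overlap. With offsets for gene length and GC content (GC and length offsets) this call was lost (-0.25, edgeR adjusted p = 0.353), while Mkln1, another such subunit, was called higher in M-MDSCs (0.89, edgeR adjusted p = 0.0245) and G-MDSCs (0.95, edgeR adjusted p = 0.00398) and the scaffold gene Gid8 in G-MDSCs (0.70, edgeR adjusted p = 0.0264). Maea, the RING partner of both RMND5 proteins, had log2 fold changes of 0.22 (SE 0.15) and 0.08 (SE 0.18), and the substrate receptor Gid4 of -0.08 (SE 0.38) and 0.84 (SE 0.42), in M-MDSCs and G-MDSCs. The median over the list was 0.10 in M-MDSCs and 0.08 in G-MDSCs, beside 0.07 and 0.03 over all genes tested.

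Between subsets, 5 of the 10 CTLH genes rose and 1 fell in G-MDSCs of WT mice, beside 26.3% of all tested genes that rose and 27.1% that fell. Ube2h, the E2 enzyme of the complex, rose by 2.15 (SE 0.20, edgeR adjusted p = 2.8e-06) and Ypel5 by 1.42 (SE 0.17, edgeR adjusted p = 2.02e-05) on the log2 scale, and Maea, Armc8 and Gid8 by 0.81, 0.68 and 0.63. Gid4 fell by 0.96 (SE 0.35, edgeR adjusted p = 0.0348). In Nlrp3-/- mice Ube2h (2.17), Ypel5 (1.19), Gid8 (1.01) and Maea (0.67) rose and none of the 10 fell, beside 23.7% and 27.4% of all tested genes. A difference of the genotype effects between the subsets was called for 0 of the 10 genes (0 with an unadjusted p under 0.05, edgeR), and for 0.028% of 10696 genes.

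**Figure D3:**
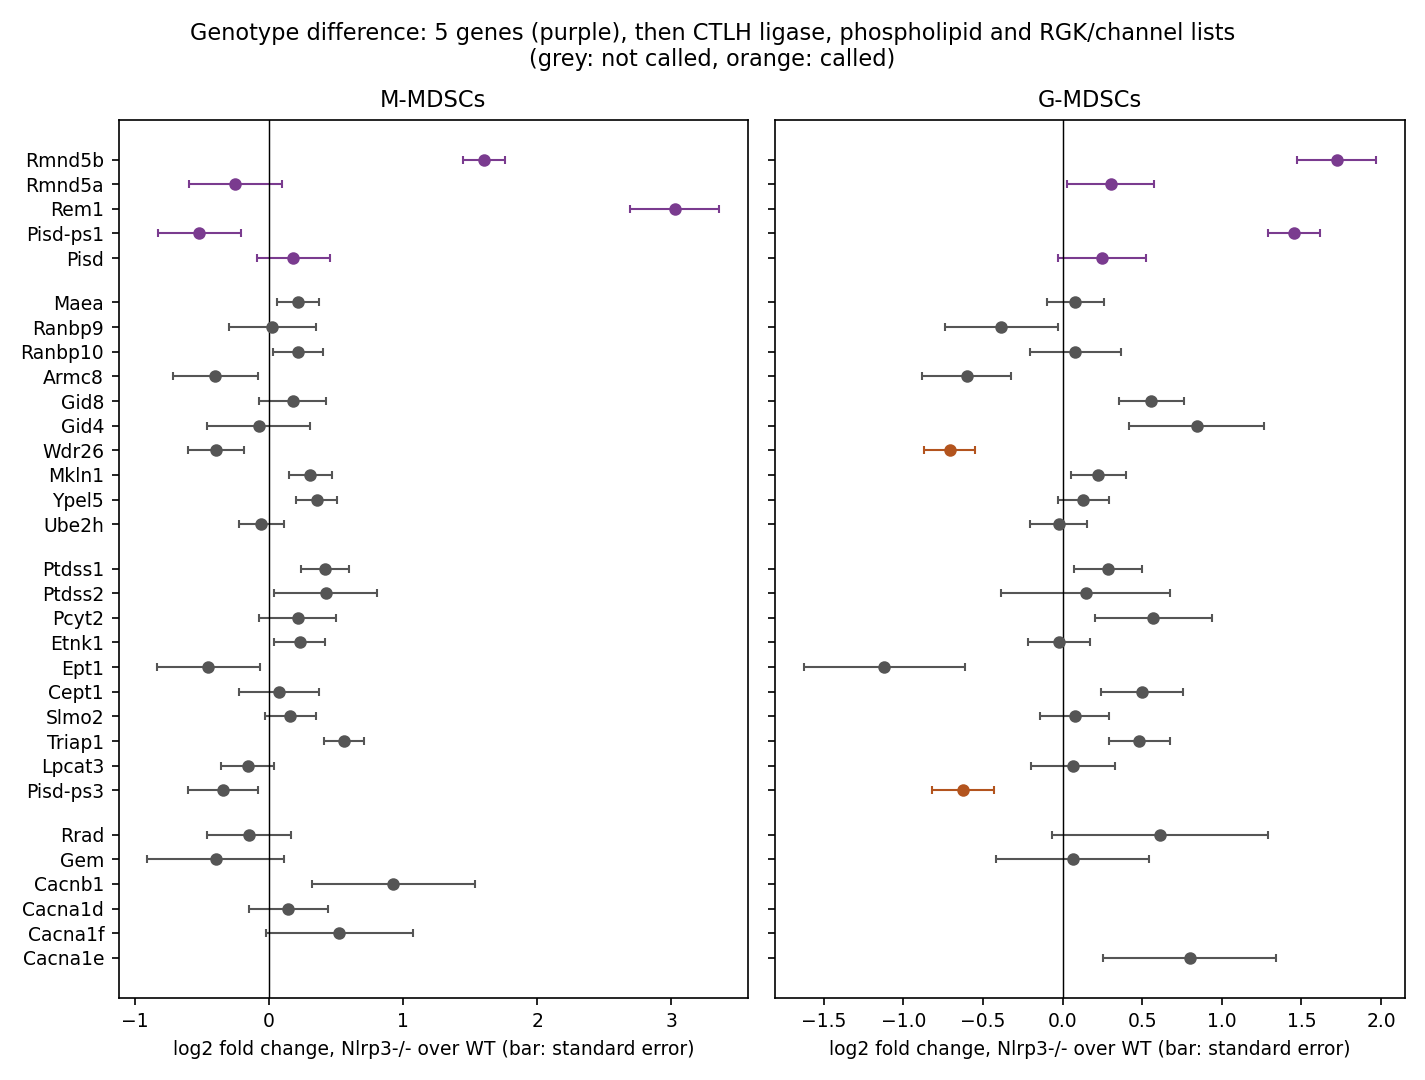
Log2 fold change, Nlrp3-/- over WT, in M-MDSCs and G-MDSCs (horizontal axes, bars are standard errors, scales differ between panels) for the 5 genes (purple) and the tested genes of the CTLH, phospholipid and RGK and calcium channel lists (orange if called, grey if not). Wdr26 and Pisd-ps3 in G-MDSCs were the called genes of the lists, at -0.71 and -0.63, and no list gene had a called difference in M-MDSCs.

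N4bp3, which encodes a NEDD4-binding protein, is the next tested gene upstream of Rmnd5b, 7.17 kb away on the same strand. It had 20, 8, 42 and 40 counts in WT and 86, 150, 148 and 121 counts in Nlrp3-/- G-MDSCs. In CPM the WT libraries, from 2.71 to 15.6, lay below the Nlrp3-/- libraries, from 19.9 to 37.0. The log2 fold change was 1.68 (SE 0.39, edgeR adjusted p = 0.00970). With the replicate block and the GC and length offsets together the edgeR adjusted p was 0.0757. This block joins WT and Nlrp3-/- libraries by number, although they are different mice. In M-MDSCs N4bp3 had 0 to 16 counts in WT and 11 to 32 in Nlrp3-/- libraries. Its log2 fold change there, 1.49 (SE 0.68), did not pass the test (edgeR adjusted p = 0.165). Nhp2, whose end overlaps Rmnd5b on the opposite strand, differed by 0.53 (SE 0.24, edgeR adjusted p = 0.160) in M-MDSCs and 0.88 (SE 0.29, edgeR adjusted p = 0.0517) in G-MDSCs. Reads were counted by strand. Phykpl, Hnrnpab, Sec24a and Sar1b, the other neighbors considered, were not called in either subset. Among the 6 neighbors of Rmnd5a, Chmp3, an ESCRT-III subunit, fell in M-MDSCs (-0.63, SE 0.15, edgeR adjusted p = 0.0205) and in G-MDSCs (-0.91, SE 0.17, edgeR adjusted p = 0.00216), and the histone demethylase gene Kdm3a fell in G-MDSCs (-1.33, SE 0.33, edgeR adjusted p = 0.0133). The call of Chmp3 in M-MDSCs was lost without WT replicate 2 or 4 or Nlrp3-/- replicate 4 (edgeR adjusted p = 0.0598, 0.0635 and 0.0574) and with the replicate block (0.0705), and it fell under the fold limit with library size alone or the GC and length offsets. With block and offsets together Chmp3 was called in neither subset (edgeR adjusted p = 0.125 and 0.0503). The call of Kdm3a was lost with the offsets, alone (edgeR adjusted p = 0.0602) or with the block.

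Rem1 lies on chr2:152626951-152635198 (plus strand) and overlaps no other annotated gene. The 193 bases before its first annotated exon in GENCODE (GRCm38.p6, sequence from RefSeq) are shown for comparison with Rmnd5b and Rmnd5a, with GGGCGG in capitals.
Rem1, chr2:152626758-152626950, plus strand: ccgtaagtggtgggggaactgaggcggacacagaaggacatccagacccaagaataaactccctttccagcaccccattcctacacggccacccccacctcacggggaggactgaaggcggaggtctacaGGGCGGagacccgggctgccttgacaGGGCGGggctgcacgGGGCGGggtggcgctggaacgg
This stretch held 3 GC boxes, and the 250 bases before the RefSeq start held 4, with 19 CG dinucleotides and none of the other letters searched.

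Rem1 was counted mainly in M-MDSC libraries. It had 13, 10, 23 and 13 counts in WT M-MDSCs, or 2.42, 1.41, 4.10 and 4.45 CPM. In Nlrp3-/- M-MDSCs it had 211, 126, 139 and 158 counts, or 24.5, 21.5, 29.0 and 20.3 CPM. Every Nlrp3-/- library was above every WT library, with a ratio of 4.56 between the nearest, and the log2 fold change was 3.03 (SE 0.33). In G-MDSCs Rem1 had 0, 0, 4 and 0 counts in WT libraries and 0 in all 4 Nlrp3-/- libraries, which allows up to 0.622 to 0.787 CPM in the latter, and it did not pass the filter on low counts.

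In Nlrp3-/- mice Rem1 was at least 33.6-fold higher in M-MDSCs than in G-MDSCs when the G-MDSC libraries were set to 3 counts each, with lower values in G-MDSCs of 4 of 4 mice. In WT mice, where it was below the filter, M-MDSCs were higher than G-MDSCs in 4 of 4 mice without a test. The 4 Nlrp3-/- G-MDSC libraries without a count of Rem1 had the highest sums of the macrophage markers, from 336 to 480 CPM. In M-MDSCs these sums were 36.0 to 53.7 CPM in WT and 113 to 230 CPM in Nlrp3-/- libraries, higher without Nlrp3 as Rem1 was. Their part in the level of Rem1 was not tested. Endothelial and muscle markers (Pecam1, Cdh5, Kdr, Acta2, Myh11 and Des) summed to 31.2 to 52.4 CPM in M-MDSCs of WT and 46.0 to 66.5 CPM in those of Nlrp3-/- mice, and to 140 to 284 CPM in G-MDSCs, and Myh11 and Des were at 0 in all 16 libraries.

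The other RGK GTPases and the calcium channel subunits were sparse. Of 14 listed genes, 5 passed the filter in M-MDSCs and 3 in G-MDSCs, and 0 were called by edgeR between genotypes in either subset (0 with an unadjusted p under 0.05, and 0 under every alternative, DESeq2 included), beside 10.6% and 16.4% of all tested genes. Rrad, an RGK GTPase, had log2 fold changes of -0.15 (SE 0.31) and 0.61 (SE 0.68), and Gem, another, of -0.40 (SE 0.51) and 0.06 (SE 0.48), in M-MDSCs and G-MDSCs. Rem2, the nearest relative of Rem1 by name, had at most 10 counts in any library. Of the pore subunits, Cacna1d was at 19.3 CPM on average in WT and 21.3 CPM in Nlrp3-/- M-MDSCs, and fell in G-MDSCs, with log2 fold changes of -3.36 (SE 0.41, edgeR adjusted p = 2.75e-05) in WT and -3.27 (SE 0.57, edgeR adjusted p = 0.000246) in Nlrp3-/- mice. In WT mice Gem rose and Rrad fell in G-MDSCs, by 0.97 (SE 0.39) and 1.14 (SE 0.46), with edgeR adjusted p of 0.0480 and 0.0489, and in Nlrp3-/- mice Cacna1f fell, with a log2 fold change of -2.01 (SE 0.81, edgeR adjusted p = 0.0493). From M-MDSCs to G-MDSCs their means went from 2.12 to 4.31, 6.78 to 3.13 and 4.10 to 1.04 CPM, and the subsets overlapped for each. These levels are low, and 53.3% (WT) and 51% (Nlrp3-/-) of all tested genes were called between subsets. Of the 6 neighbors of Rem1 (Rbck1, Zcchc3, H13, Id1, Bcl2l1 and, tested in G-MDSCs alone, Trib3), 0 were called by edgeR in either subset, the smallest unadjusted p being 0.0618 in M-MDSCs and 0.0649 in G-MDSCs.

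Pisd-ps1 lies on chr11:3125904-3131004 (plus strand) and is annotated as a transcribed unprocessed pseudogene. Pisd lies on chr5:32736301-32785646 (minus strand) and overlaps the gene models Gm20671 and Gm43695 on its own strand. The longest aligned part of the Pisd-ps1 transcript, 897 bases, was 95.1% identical to Pisd, and 1043 bases were 96.5% identical to Pisd-ps2. Reads were 75 bases long. The gapless 75 bases of the Pisd coding sequence nearest its 3′ end that align to Pisd-ps1 are shown. They contain some of the bases that separate the copies. The stretch ends at base 1112 of 1115 in Pisd-ps1, next to the annotated 3′ end. In Pisd it ends at base 1251 of 2183, short of the 3′ end that QuantSeq reads. The sequences come from the GENCODE M21 transcripts, and capitals mark the 7 bases that differ.
Pisd-ps1, transcript bases 1038 to 1112: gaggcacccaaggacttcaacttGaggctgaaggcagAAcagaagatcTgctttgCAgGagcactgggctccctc
Pisd, transcript bases 1177 to 1251: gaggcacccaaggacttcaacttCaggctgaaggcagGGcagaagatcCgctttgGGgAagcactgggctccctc
Of the 1041 stretches of 75 bases in Pisd-ps1, 46 (4.42%) also occur unchanged in Pisd or Pisd-ps2, and of 2109 in Pisd, 140 (6.64%) occur in Pisd-ps1 or Pisd-ps2. Rmnd5b, Rmnd5a and Rem1 share 0 such stretches with another gene. Pisd-ps3, a further copy, was not compared, and the counts of all copies are uncertain to the extent that reads with mismatches were placed on the wrong one.

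Pisd-ps1 was higher without Nlrp3 in G-MDSCs. Its WT libraries were at 60.8, 45.4, 52.6 and 55.3 CPM and its Nlrp3-/- libraries at 144, 163, 135 and 178 CPM. The groups were apart, with a ratio of 2.23 between the nearest libraries, and the log2 fold change was 1.45 (SE 0.16). M-MDSCs had 10.4, 8.58, 11.1 and 9.59 CPM in WT and 4.77, 11.4, 6.47 and 4.75 CPM in Nlrp3-/- libraries, which overlapped, with a log2 fold change of -0.52 (SE 0.31). Whether the genotype difference of Pisd-ps1 itself differs between the subsets was not tested, since the gene was chosen on it. Across the 5 genes, 2 (Rmnd5b and Rem1) passed both thresholds among the 5 tested in M-MDSCs, and 2 (Rmnd5b and Pisd-ps1) among the 4 tested in G-MDSCs. In these contrasts 3.51% and 4.7% of all tested genes were called higher, and since the contrasts chose the genes nothing is read from the counts. Of the members past the thresholds, Pisd-ps1 in G-MDSCs lay nearest to the fold limit of 0.58 on the log2 scale, and of those short of them, Pisd-ps1 in M-MDSCs at -0.52.

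Between the subsets Pisd-ps1 was higher in G-MDSCs of all 8 mice. The mean was 53.5 ± 6.41 CPM in G-MDSCs and 9.91 ± 1.07 CPM in M-MDSCs of WT mice, a log2 fold change of 2.43 (SE 0.19, edgeR adjusted p = 6.42e-07). In Nlrp3-/- mice the means were 155 ± 19.3 and 6.86 ± 3.15 CPM, a log2 fold change of 4.41 (SE 0.27). No M-MDSC library reached the lowest G-MDSC library of either genotype. In order of level, the M-MDSC groups overlapped each other, and both G-MDSC groups stood above them and apart from each other.

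Pisd itself differed less. It was at 33.6, 32.1, 57.4 and 41.1 CPM in WT and 64.0, 36.3, 30.1 and 50.1 CPM in Nlrp3-/- M-MDSCs. In G-MDSCs it was at 19.4, 17.6, 33.0 and 34.6 CPM in WT and 44.4, 34.8, 23.6 and 29.4 CPM in Nlrp3-/- libraries. The genotypes overlapped in both, with log2 fold changes of 0.18 (SE 0.27) and 0.25 (SE 0.28), and the levels of all 4 groups overlapped with that of a neighbor. Pisd was lower in G-MDSCs than in M-MDSCs of 8 of 8 mice, by 0.65 (SE 0.27) on the log2 scale in WT mice and 0.58 (SE 0.28) in Nlrp3-/- mice, without passing the test (edgeR adjusted p = 0.0583 and 0.0938). With the mouse as a block, the WT difference was -0.68 with an edgeR adjusted p of 0.00562 and was called, and the Nlrp3-/- difference was -0.54 with an edgeR adjusted p of 0.0239, under the fold limit.

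The ratio of Pisd-ps1 to Pisd counts had medians of 0.252 (WT) and 0.145 (Nlrp3-/-) among M-MDSCs and of 2.02 (WT) and 5.17 (Nlrp3-/-) among G-MDSCs. The subsets did not overlap in either genotype, and the mean log2 ratio was higher in G-MDSCs by 3.09 in WT mice (exact two-sided permutation p = 0.0286, the smallest 4 against 4 libraries can give, and 0.0571 after adjustment over 4 comparisons) and by 5.00 in Nlrp3-/- mice. Between genotypes the ratios of G-MDSCs, from 1.59 to 3.12 in WT and from 3.25 to 6.05 in Nlrp3-/- libraries, did not overlap, and those of M-MDSCs did.

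Of 14 other genes of phosphatidylserine and phosphatidylethanolamine, 10 were tested between genotypes. In M-MDSCs 0 were called by edgeR (2 with an unadjusted p under 0.05, and 0 by DESeq2), beside 10.6% of all tested genes. Triap1, a partner of the carriers that bring phosphatidylserine to the inner membrane, was at 59.9 CPM on average in WT and 86.7 CPM in Nlrp3-/- libraries, a log2 fold change of 0.56 (SE 0.15, edgeR adjusted p = 0.0328) under the fold limit, and was called with library size alone as the scaling (0.66, edgeR adjusted p = 0.0199). With the GC and length offsets the ethanolamine kinase gene Etnk1 was called (0.64, edgeR adjusted p = 0.0470). In G-MDSCs, where 16.4% of all tested genes were called, 1 fell, the pseudogene Pisd-ps3, from 108 ± 25.3 to 74.2 ± 13.7 CPM with a log2 fold change of -0.63 (SE 0.20, edgeR adjusted p = 0.0391) and overlapping groups. That call was lost in a model of all 16 libraries, with library size alone, the replicate block, the GC and length offsets or both of these (edgeR adjusted p of 0.0525 to 0.131), and without WT replicate 1 or 3 or Nlrp3-/- replicate 1, 3 or 4 (edgeR adjusted p = 0.0987, 0.0616, 0.0959, 0.0894 and 0.108). With library size alone Triap1 was called higher in G-MDSCs (0.60, edgeR adjusted p = 0.0393), and with the offsets Cept1, a choline and ethanolamine phosphotransferase gene, was (0.83, edgeR adjusted p = 0.0377). Ptdss1, which makes phosphatidylserine, had log2 fold changes of 0.42 (SE 0.18) and 0.29 (SE 0.21) in M-MDSCs and G-MDSCs. The median of the list was 0.19 in M-MDSCs and 0.11 in G-MDSCs, beside 0.07 and 0.03 over all genes tested. Between subsets Ptdss1 fell in G-MDSCs of WT (-0.60, SE 0.19, edgeR adjusted p = 0.0159) and Nlrp3-/- mice (-0.74, SE 0.20, edgeR adjusted p = 0.00733), and Triap1 fell in Nlrp3-/- mice (-0.61, SE 0.17, edgeR adjusted p = 0.00789). Next to Pisd-ps1, Sfi1, 0.846 kb away on the opposite strand, was not called in either subset, and Eif4enif1 fell in G-MDSCs (-0.76, SE 0.23, edgeR adjusted p = 0.0323), a call kept without WT replicate 1 or 2 and lost without any other G-MDSC library (edgeR adjusted p of 0.0501 to 0.104), and lost with library size alone, the replicate block, the GC and length offsets or both of these (0.0527 to 0.0917). Of the 6 neighbors of Pisd, Depdc5, a subunit of the GATOR1 complex, fell in G-MDSCs (-1.20, SE 0.31, edgeR adjusted p = 0.0176, and 0.0538 to 0.156 with the replicate block, the offsets or both), and 0 others were called in either subset.

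Rmnd5b and Pisd-ps1 lie on chromosome 11 as does the disrupted gene, Nlrp3 (chr11:59541568-59566956), Rmnd5b 7.91 Mb and Pisd-ps1 56.4 Mb from it on the same side. Rmnd5a, Rem1 and Pisd are on other chromosomes. Within 10 Mb of Nlrp3, 19 of 155 tested genes (12.3%) were called between genotypes in M-MDSCs and 24 of 138 (17.4%) in G-MDSCs, compared with 10.6% and 16.4% of all other tested genes. Of the same genes 6.45% and 8.70% were called higher, compared with 3.47% and 4.64% of the others. Within 5 Mb, a stretch that leaves Rmnd5b out, 8.33% and 14.5% were called, compared with 10.6% and 16.4% of the others. In that stretch 3.57% and 7.89% were called higher, compared with 3.51% and 4.68% of the others. Among 20 chromosomes, chromosome 11 was in place 9 in M-MDSCs and 10 in G-MDSCs by the percentage of genes called, and in place 3 in both by the percentage called higher (4.60% and 6.31%).

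**Figure D4:**
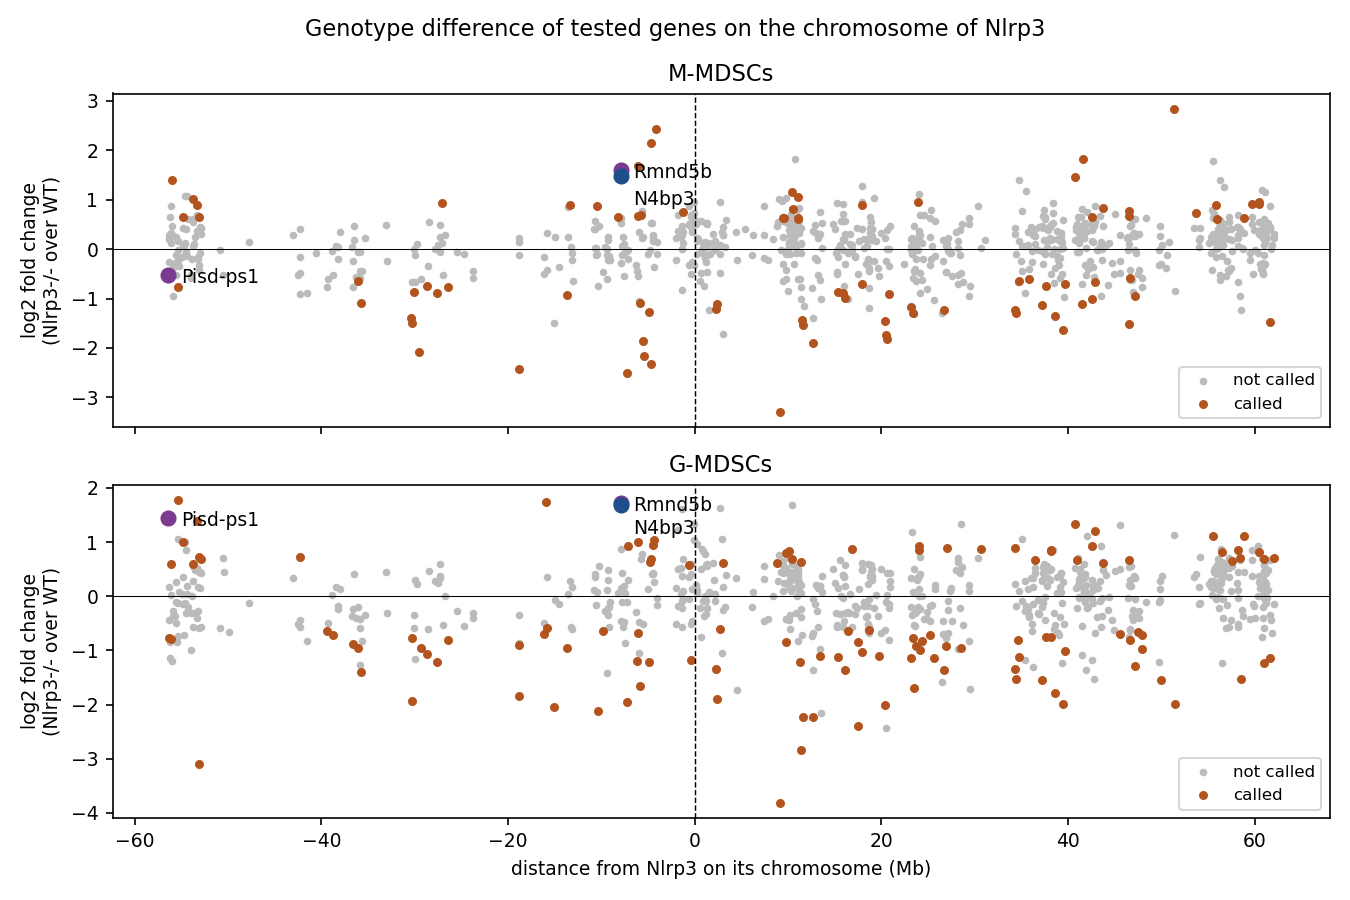
Log2 fold change, Nlrp3-/- over WT (vertical axes), of the tested genes on the chromosome of Nlrp3 against distance from Nlrp3 in Mb (horizontal axis, dashed line at Nlrp3, which is left out). Orange points were called and grey points were not. Rmnd5b lies 7.91 Mb from Nlrp3 next to N4bp3, with values of 1.60 and 1.49 in M-MDSCs and 1.72 and 1.68 in G-MDSCs, and called genes of both directions lie along the whole chromosome.

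The genes most like each of the 5 over the 16 libraries were found by Pearson's correlation of log2 CPM, which is a description because libraries share their group. For Rmnd5b these were Tmx1 (r = 0.960), Brk1 (0.952) and Srf (0.952). The mean of Srf, the serum response factor, was 87.4 and 155 CPM in WT and Nlrp3-/- M-MDSCs and 131 and 279 CPM in G-MDSCs, the same order of the 4 groups as for Rmnd5b. For Rmnd5a they included Pdcd6 (0.943) and Ccdc71l (0.927). For Rem1 they were Wnt6 (0.955), Adcy7 (0.946), an adenylate cyclase gene at 94.3 CPM on average in Nlrp3-/- M-MDSCs and 34.3 CPM in Nlrp3-/- G-MDSCs, and Spink2 (0.939). For Pisd-ps1 they were Dph3 (0.977), at 42.4 and 39.7 CPM in M-MDSCs and 86.5 and 131 CPM in G-MDSCs, Slc32a1 (0.972) and 4931428L18Rik (0.970). For Pisd they were Sun1 (0.932), Mpeg1 (0.917) and Ndufb3 (0.912). Between the genes themselves, r was 0.71 for Rmnd5b and Pisd-ps1, 0.40 for Rmnd5b and Rmnd5a, -0.48 for Pisd-ps1 and Pisd, and -0.37 for Rmnd5b and Rem1.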

How the data were processed

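Reads were aligned by the authors to mm10 (HISAT2 2.1.0) and assigned to genes by strand (HTSeq), per the labels and methods. The authors deposited raw counts of 24421 gene symbols for each of 16 libraries, whole numbers that were used as deposited. Groups and replicate numbers came from the labels. The 5 genes, the gene lists and the tests were chosen with earlier results of these data known.

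The analysis used edgeR 4.0.16 under R 4.3.3 (filterByExpr, TMM, quasi-likelihood F test, Benjamini-Hochberg over all tested genes), between genotypes within a subset and between subsets within a genotype, and for a difference of effects in all 16 libraries. Log2 CPM for the correlations used a prior count of 2. Ratios went through exact permutation tests, two-sided, and edgeR was tested on simulated data. Locations came from GENCODE M21, in which 23376 symbols matched and 675 more by an older symbol, and promoters from RefSeq. Plots were made with matplotlib 3.10.9 under Python 3.11. The genes named are the 5, the tested genes of the 3 lists, the 3 nearest tested genes on each side, the 3 best correlated genes of each, markers and Nlrp3. Some genes and marker sums that this rule covers are not reported here.

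Alternatives were DESeq2 1.42.0, its size factors, library size only, a minimum of 10 counts per sample, no filter, all 16 libraries in 1 model, offsets for GC content and length (splines with 4 degrees of freedom), a replicate block and leaving out each library. Same-numbered WT and Nlrp3-/- libraries are different mice, and their deviations correlated at -0.45 to 0.02, so these numbers do not pair. Both subsets of a number come from 1 mouse (r = 0.01 to 0.40). The main subset tests and the ratio tests did not use this pairing, and the mouse was a block in an alternative fit. Libraries held 2295967 to 6079866 counts, which limits genes under 3 counts (0.493 to 1.31 CPM before TMM scaling). No library repeated another (0 of 24 within-group pairs).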

Additional observations from a re-analysis of the deposited data

Results flagged for a closer look

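Of 20 groups of 4 libraries examined for the 5 genes, 3 held a library that stood apart from the others by Dixon's gap. Its limit is set for about 1 in 20 groups of continuous, normal values, which counts near 0 are not. Rmnd5b was at 20.8 CPM in WT M-MDSC replicate 2, while the other 3 were between 25.3 and 25.9 CPM. Rmnd5b was at 33.2 CPM in WT G-MDSC replicate 2, which is the same mouse, while the other 3 were between 72.9 and 75.8 CPM. Rem1 was at 0.969 CPM in WT G-MDSC replicate 3, which is 4 counts, while the other 3 were at 0. With 3 libraries at 0 any count in the remaining library would have been flagged.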

How the results depend on the processing

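The log2 fold changes of Rmnd5b, Rem1 and Pisd-ps1 between genotypes kept their direction under every alternative run where they passed the filter. Over the alternatives with all libraries they ranged from 1.30 to 1.70 for Rmnd5b and 2.70 to 3.11 for Rem1 in M-MDSCs, and from 1.38 to 1.83 for Rmnd5b and 1.09 to 1.57 for Pisd-ps1 in G-MDSCs. Leaving out a library gave 1.54 to 1.64, 2.75 to 3.24, 1.51 to 1.86 and 1.39 to 1.52. Values that moved by more than the replicate spread came from the correction for GC content and length, alone or with the replicate block (the cause was not tested). These were Rmnd5b in M-MDSCs (1.30 and 1.30), Pisd-ps1 in G-MDSCs (1.10 and 1.09) and, with both, Rmnd5a in G-MDSCs (0.82).

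The number of genes called in M-MDSCs, 1060, was 425 with the replicate block, 659 with the GC content and length correction and 47 with both. In G-MDSCs, 1522 became 985, 964 and 396. Leaving out a library gave 450 to 1783 genes in M-MDSCs, namely 514, 669 and 473 without WT replicates 2, 3 and 4 and 1783, 702 and 450 without Nlrp3-/- replicates 1, 3 and 4, and 1104 to 1544 in G-MDSCs. With library size only, 684 higher and 569 lower genes in M-MDSCs and 793 and 854 in G-MDSCs stood against 351 and 709, and 436 and 1086. Same-numbered libraries of the genotypes correlated best with their own number in 0 of 4 pairs in either subset, so the replicate block follows numbers that do not pair.

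Between subsets, library size only moved the median of all genes from -0.05 to -0.79 in WT and from -0.12 to -0.83 in Nlrp3-/- mice. With it Rmnd5a was -0.40 in WT mice, a change of sign (edgeR adjusted p = 0.317), and 0.18 in Nlrp3-/- mice, where the call was lost (edgeR adjusted p = 0.625), and Pisd was called at -1.40 and -1.30. Rmnd5b remained called at 0.66 and 0.79, and Pisd-ps1 in WT mice at 1.68. Pisd in WT mice was also called with no filter (-0.70), at least 10 counts (-0.76) and the replicate block (-0.68), and ranged from -0.81 to -0.49 without 1 library, being called without M-MDSC replicate 1 or 2 or G-MDSC replicate 3 or 4 (edgeR adjusted p = 0.0435, 0.0334, 0.0448 and 0.0398). In Nlrp3-/- mice it ranged from -0.74 to -0.34 and was called without M-MDSC replicate 3 (-0.74, edgeR adjusted p = 0.0308), and Rmnd5a ranged from 0.72 to 1.26. The block with the mouse changed no other call of the 5 genes between subsets. Rem1 has no value where it fell below a filter.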

Other observations

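Markers of other cells that the sorted samples could hold were summed in CPM as values beside those of the macrophage markers. T and NK cell markers (Cd3d, Cd3e, Cd3g, Cd4, Cd8a and Ncr1) were at 39.4 to 92.3 CPM in M-MDSCs and 84.1 to 133 CPM in G-MDSCs, with overlapping genotypes in each subset. Megakaryocyte markers (Pf4, Ppbp, Gp9, Gp1bb and Itga2b) were at 6.51 to 22.7 CPM in M-MDSCs and 12.5 to 40.0 CPM in G-MDSCs, where Itga2b rose without Nlrp3. Dendritic cell markers (Flt3, Zbtb46, Cd209a, Itgax, Siglech and Xcr1) summed to 152 to 205 CPM in WT and 210 to 269 CPM in Nlrp3-/- G-MDSCs, which did not overlap, and to at most 63.1 and 83.4 CPM in M-MDSCs, which did. Eosinophil and basophil markers (Prg2, Epx, Siglecf, Ccr3, Mcpt8 and Fcer1a) were at 3.92 to 24.7 and 22.5 to 68.4 CPM in M-MDSCs, where Ccr3 rose, and at 27.1 to 50.6 and 57.3 to 62.2 CPM in G-MDSCs. Melanoma markers (Mlana, Pmel, Tyr, Tyrp1 and Dct) were at 1.45 CPM or less, with Mlana, Tyr and Tyrp1 at 0 in all 16 libraries. Their part in the levels of Rmnd5b, Rem1 and Pisd-ps1 was not tested.

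All 16 libraries carried 700 to 4800 counts of Xist, and of 4 Y-linked genes 1 count was found in 1 library, so the groups held no difference in sex at this depth.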
